A study of Mus musculus with 10 samples.

Results

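Ribosome biogenesis factors are the proteins that make, modify, cut and assemble ribosomal RNA into subunits, and 42 of their genes were followed in mouse fibroblasts moved between 38 and 33 °C. The members were chosen by gene symbol and not by a cut on expression values, though earlier results of these data were known. All 42 were found among the 38087 genes of the deposited tables, and all 42 had a mean exon level of at least 1 RPKM (reads scaled to exon length and library depth), as did 10184 genes in all.

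The cells were NIH3T3, an immortalized line of mouse embryonic fibroblasts, labelled wild type in every group with no agent named other than the change of temperature. They were seeded at 37 °C, moved after 4 h to a starting temperature for 16 h, and then moved to the other temperature. In the course called downshift here the cells went from 38 to 33 °C, and in the upshift from 33 to 38 °C. Total RNA depleted of ribosomal RNA was sequenced at 0, 1, 3, 6 and 9 h of each course, with 1 sample per time, so the 0 h samples are cells held at the starting temperature. Exon reads and intron reads were counted separately for each gene.

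Ribosomal RNA is transcribed in the nucleolus by RNA polymerase I. Small nucleolar ribonucleoproteins (snoRNPs) then guide 2′-O-methylation (the box C/D class) and pseudouridylation (the box H/ACA class) of the transcript, while the small subunit processome and the large subunit assembly factors cut and fold it. Many of these genes are known targets of the transcription factor Myc, and their level is widely used as a sign of growth. Because the libraries were depleted of ribosomal RNA, the product of this pathway was not measured.

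Every sample has a pair of complete columns in the tables, each named by a numbered series: 5 and 11 in the downshift, 2 and 13 in the upshift. Series 10 is an extra set of columns, present for the downshift at 1 and 3 h. Nothing in the labels says whether series are separate cultures, so the columns of a sample were combined and counted as 1, and p-values measure the scatter of the 10 samples around a trend in time. Depth ranged from 22403625 to 48004854 reads per exon column and from 15313374 to 25233405 per intron column. All 11 fibroblast markers were above 1 RPKM, with a summed level of 6336 to 10808 RPKM. Among markers of other cells, Lyz2 (leukocytes), Krt14 (epithelium) and Acta1 (muscle) passed 1 RPKM. The defining genes Ptprc, Epcam, Pecam1, Rbfox3 and Myog stayed below 0.1 RPKM.

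The series stood far apart for the members, and this bears on every level given here. All 42 members were higher in series 2 than in series 13 of the same upshift samples, by a median of 0.98 on the log2 scale (1.97-fold). The gap ran from 0.33 for Nop10 to 1.80 for Nop56, while over all tested genes the median gap was -0.01. In the downshift 31 of 42 members were higher in series 5 than in series 11, with a median of 0.30 and a range from -0.55 (Polr1a) to 0.78 (Gnl3). The summed exon level of the members was 4473 to 5062 CPM (exon reads scaled to a common library depth) in series 13 and 10014 to 11564 CPM in series 2. It was 6672 to 7715 CPM in series 11 and 7696 to 10670 CPM in series 5. Myc followed the same order in the upshift, at 45.4 to 102 CPM in series 13 and 142 to 180 CPM in series 2. In the downshift its ranges overlapped, at 83.6 to 148 CPM in series 11 and 97.6 to 144 CPM in series 5. There Myc was higher in series 11 at 0 and 3 h and higher in series 5 at 1, 6 and 9 h. The part of Myc in the members' levels was not tested.

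**Figure D1:**
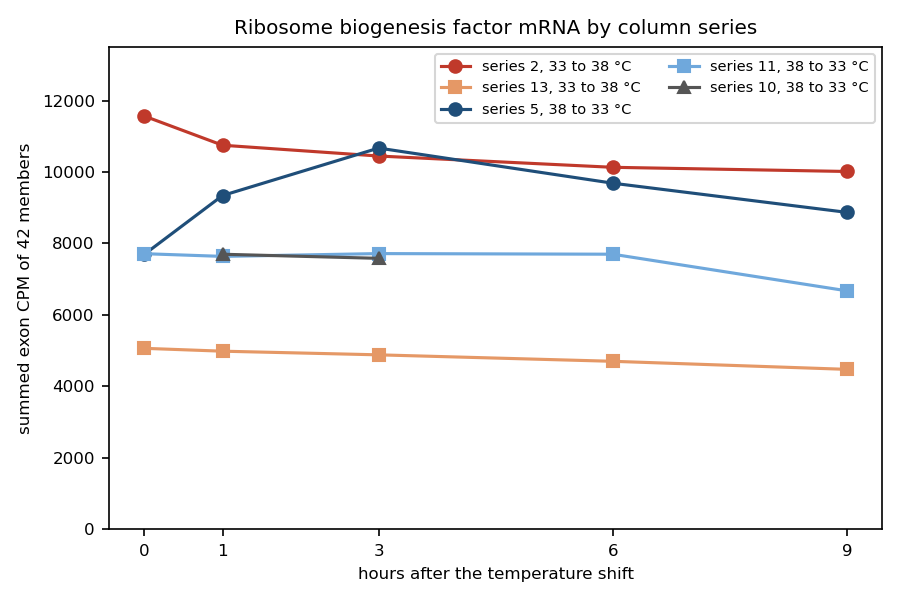
Summed exon reads of the 42 members, in CPM, against hours after the shift, with 1 line per numbered series. Series 2 lies between 10014 and 11564 CPM and series 13 between 4473 and 5062 CPM although both come from the upshift samples, and series 5 has its highest value, 10670 CPM, at 3 h.

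For this reason the steady level at 33 °C could not be set against that at 38 °C. At 0 h, series 2 against 5 placed 41 of 42 members higher at 33 °C (median 0.44 on the log2 scale), while series 13 against 11 placed 41 of 42 lower (median -0.60). At 9 h the directions turned: 37 of 42 were lower at 33 °C in series 2 and 5 (median -0.18) and 40 of 42 were higher in series 13 and 11 (median 0.39). Temperature and series cannot be told apart in these comparisons. Changes within a course set each series against itself, while a difference between courses still sets series 5 and 11 against 2 and 13. In bulk RNA a change in the RNA of every cell and a change in the share of cells that express a gene cannot be told apart.

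In the combined samples the members varied little. The ratio of the highest to the lowest of the 10 samples had a median of 1.32 over members, from 1.17 for Nob1 to 1.57 for Nhp2, against a median of 1.45 over all tested genes. Combining evens out the series, and over single columns Nop56 ran from 195 to 859 CPM. The members' mean exon levels were 8.46 (Fbl) to 451 RPKM (Npm1), while all tested genes start at 1 RPKM. The part of expression level in this comparison was not tested. The log2 level of a member correlated with the mean of the others with a median Pearson r of 0.71 over the 10 samples, a description in which all points share their libraries and their time order. The value exceeded 0.5 for 30 of 42 members and was highest for Nop56 (0.957) and lowest for Noc3l (0.11). No member had a value below 0. The same value is not given for other sets of genes, so whether it is particular to the members is not shown.

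After cooling most members were highest at 3 h. In the combined downshift samples 33 of 42 members (78.6%) were highest at 3 h, against 16.5% of all tested genes. Relative to 0 h the median member stood at 0.08 at 1 h, 0.19 at 3 h, 0.11 at 6 h and -0.03 at 9 h on the log2 scale. The peak at 3 h came from series 5, where 35 of 42 members were highest at that time (83.3%, against 17.4% of all genes). In series 11 only 6 of 42 were (14.3%, against 16.9%). The late step had 1 direction in both series: between 6 and 9 h, the value at 9 h was the lower for 37 of 42 members in series 5 and 41 of 42 in series 11, with medians of -0.12 and -0.22, and for 49.7% and 49.8% of all genes.

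In the combined upshift samples 23 of 42 members (54.8%) were highest at 0 h, against 28.8% of all tested genes. At 9 h 22 of 42 (52.4%) were lowest, against 22.1%. The series differed here too: 25 of 42 were highest at 0 h in series 2, against 28.8% of all tested genes. In series 13 the numbers were 19 of 42 at 0 h, against 28.0%, and 14 at 3 h, against 16.3%. The median member stood at -0.07 at 1 h, -0.07 at 3 h, -0.09 at 6 h and -0.20 at 9 h relative to 0 h. The value at 9 h was below that at 6 h for 34 of 42 members in series 2 and 33 of 42 in series 13. This held for 49.7% and 48.3% of all tested genes. These shapes are counts over members of 1 sample per time and carry no test.

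**Figure D2:**
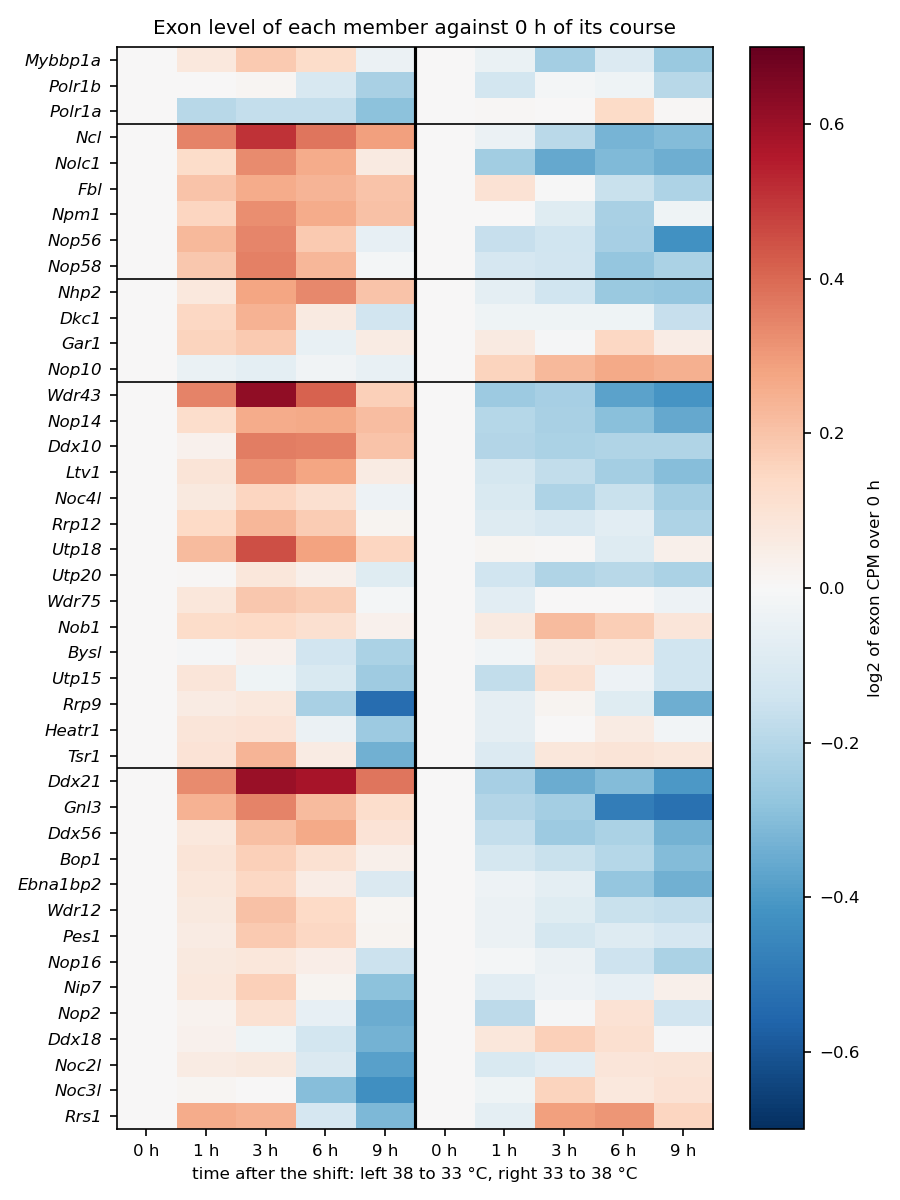
Exon level of each of the 42 members at each time as the log2 ratio to 0 h of its course, downshift on the left and upshift on the right, with members grouped by role (RNA polymerase I, box C/D and scaffold, box H/ACA, small subunit, large subunit, from top to bottom). Most rows are reddest at 3 h of the downshift and turn blue toward 9 h of the upshift.

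To test the changes, a slope on the logarithm of time was fitted for each course, and is given as the log2 change from 0 to 9 h with its standard error. A rise to 3 h that returns by 9 h gives a slope near 0 and a larger error. Such a shape can therefore go uncalled. The downshift change minus the upshift change, called the exon difference here, is positive where a gene's change was higher with cooling than with warming. At an adjusted p of 0.05 (edgeR quasi-likelihood test over 10184 genes), 9 of 42 members were higher by this measure and 2 were lower. Of all tested genes 23.9% were called higher and 23.0% lower, so the members' 26.2% called in either direction lay below the 46.9% of all genes. The median member difference was 0.20, against 0.01 over all genes, and its median size without sign was 0.28, against 0.42. The positive median was not shared by the pairs of series. Within series 2 and 5 the member median was 0.36, against -0.01 over all genes. Within series 11 and 13 it was -0.05, against 0.03. At an unadjusted p under 0.05 there were 18 members (42.9%), against 54.7% of all tested genes.

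The calls were sensitive to single samples. Leaving out 1 sample at a time gave between 2 and 21 members called higher and between 0 and 4 called lower. The shares of all tested genes in these left-out fits are not given, here or below. Whether the counts changed for the members alone or for all genes is therefore not shown. Without the downshift 0 h sample 2 were called higher, without the upshift 0 h sample 3, and without the downshift 9 h sample 21. The lower calls numbered 4 without downshift 0 h or 3 h, 1 without downshift 6 h or upshift 6 h, and 0 without downshift 9 h or upshift 0 h. Within series 2 and 5 alone 10 members were called higher and 0 lower, where 18.4% of all genes were higher and 19.4% lower. Within series 11 and 13 alone 5 were called higher and 6 lower, where 20.2% of all genes were higher and 17.9% lower. Ddx21 and Gnl3 were called higher in both, 33 of 42 members had the same sign in both, and 37 of 42 had the larger value in series 2 and 5. The shares of all tested genes for these counts are not given, so whether they set the members apart is not shown.

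**Figure D3:**
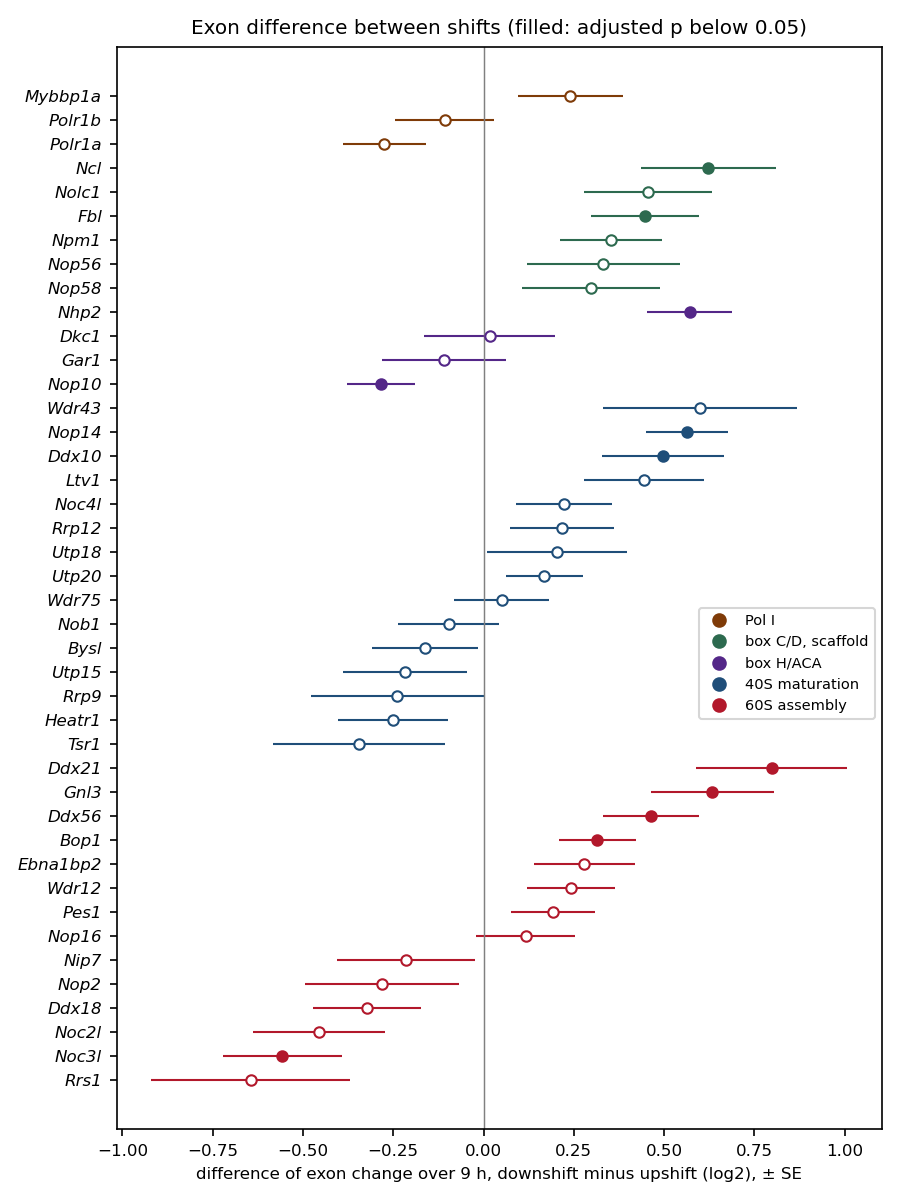
Exon difference (downshift minus upshift change over 9 h, log2) with its standard error for each of the 42 members, coloured by role, with filled points for an adjusted p below 0.05. Values run from -0.64 for Rrs1 to 0.80 for Ddx21, and all 6 box C/D and scaffold members lie above 0.

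Among the RNA polymerase I members none was called in either course or in their difference by the main fit over all 10 samples. Polr1a, the largest subunit of the enzyme, stood at 203, 177, 181, 181 and 166 CPM at 0, 1, 3, 6 and 9 h of the downshift and at 150.4, 152, 150.5, 165 and 151 CPM at the same times of the upshift. The downshift values were below the start at every later time, and the upshift values stayed close together except at 6 h. The exon difference was -0.28 ± 0.11 (SE, adjusted p = 0.072, edgeR). It was -0.49 within series 11 and 13 (adjusted p = 0.0178) and -0.03 within series 2 and 5. With a plain sum of columns it was -0.39 (edgeR, adjusted p = 0.0176). Polr1b, the second-largest subunit, was at 87.5, 87.8, 88.3, 81.0 and 74.7 CPM in the downshift and at 78.1, 71.5, 77.4, 76.5 and 68.2 CPM in the upshift. Both courses ended at their lowest value, and the difference was -0.11 ± 0.14 (adjusted p = 0.543, edgeR). Its signs were opposite in the series pairs: 0.28 within series 2 and 5 (adjusted p = 0.215) and -0.53 within series 11 and 13 (adjusted p = 0.0412). The downshift change within series 11 and 13 was -0.33 for Polr1a and -0.52 for Polr1b (edgeR, adjusted p = 0.0342 and 0.0184). Within series 2 and 5 it was -0.07 and 0.10 (adjusted p = 0.698 and 0.561). Mybbp1a, a nucleolar Myb-binding protein that acts on ribosomal RNA transcription, had a difference of 0.24 (adjusted p = 0.198).

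The box C/D snoRNP and nucleolar scaffold members all had a positive difference, with a median of 0.40, and 2 of 6 were called. Ncl encodes nucleolin, an abundant nucleolar RNA-binding protein (chromosome 1, positions 86344719 to 86359400 of GRCm38, minus strand). Its exon level was 714, 909.6, 1012, 925 and 869 CPM in the downshift and 884, 859, 774, 706 and 715 CPM in the upshift. The downshift values after 0 h were all above the start, the upshift values all below it. The difference was 0.62 ± 0.19 (adjusted p = 0.0203, edgeR). The call was lost without the downshift 0 h sample (0.26, adjusted p = 0.198) or the upshift 0 h sample (0.69, adjusted p = 0.0525), and with linear hours (0.47, adjusted p = 0.104). Within series 11 and 13 it was 0.82 (adjusted p = 0.00106) and within series 2 and 5 it was 0.59 (adjusted p = 0.132).

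Fbl, fibrillarin, is the methyltransferase of box C/D snoRNPs. It was at 33.1, 38.0, 39.6, 39.0 and 38.0 CPM in the downshift and at 35.6, 38.2, 35.5, 31.9 and 30.6 CPM in the upshift. All later downshift values were above 0 h, while in the upshift the values at 6 and 9 h were the lowest. The difference of 0.45 ± 0.15 (adjusted p = 0.0318, edgeR) ranged from 0.27 to 0.67 with 1 sample left out and lost its call without downshift 0 h or 6 h or upshift 1, 6 or 9 h (adjusted p between 0.0531 and 0.252). It was 0.545 within series 2 and 5 (adjusted p = 0.0647) and 0.40 within series 11 and 13 (adjusted p = 0.0676), and the call was also lost with no filter, a plain sum of columns, a step in time or without series 13 (adjusted p between 0.0513 and 0.119). Npm1 encodes nucleophosmin, a histone-binding chaperone that structures the outer nucleolus. It was at 1128, 1253, 1412, 1349 and 1299.9 CPM in the downshift and at 1186, 1189, 1117, 1014 and 1162 CPM in the upshift, with a difference of 0.35 ± 0.14 that did not pass (adjusted p = 0.0639), although it did with DESeq2's size factors, with DESeq2, with limma and with no filter (adjusted p between 0.0366 and 0.0494). Nop56 and Nop58, the core proteins that hold fibrillarin on the guide RNA, and Nolc1, a chaperone of snoRNPs, had differences of 0.33, 0.30 and 0.46, none called.

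The box H/ACA snoRNP has 4 core proteins, all members, and their values ran in different directions. Nhp2 (chromosome 11, positions 51619735 to 51623714, plus strand), which binds the guide RNA, was at 139, 147, 168, 176 and 159.9 CPM in the downshift and at 135, 129, 123, 113 and 112 CPM in the upshift. Later values lay above 0 h in the downshift and below 0 h in the upshift. Nhp2 rose after cooling by 0.29 ± 0.08 (adjusted p = 0.0274, edgeR) and fell after warming by 0.29 ± 0.08 (adjusted p = 0.0251). The difference of 0.57 ± 0.12 (adjusted p = 0.00337) stayed called with each sample left out in turn, from 0.53 to 0.72. It was 0.69 within series 2 and 5 (adjusted p = 0.00479) and 0.43 within series 11 and 13 (adjusted p = 0.0627). The single-course calls were weaker: without downshift 0, 1 or 6 h the rise missed the threshold (adjusted p up to 0.255), and without upshift 0, 1, 6 or 9 h so did the fall (up to 0.106). The rise was 0.45 within series 2 and 5 (adjusted p = 0.0141, edgeR) but 0.02 within series 11 and 13 (adjusted p = 0.908). The change after warming was -0.24 within series 2 and 5 (adjusted p = 0.107) and -0.41 within series 11 and 13 (adjusted p = 0.0306). Both calls were also lost with linear hours, a step in time or without series 13 (adjusted p between 0.0526 and 0.154). The rise was lost with limma too (0.23, adjusted p = 0.0765), and the fall with a plain sum of columns (-0.11, edgeR, adjusted p = 0.359).

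Nop10, the smallest of the 4 proteins, ran the other way. Its level was 123, 119, 118, 121 and 119 CPM in the downshift and 93.9, 105, 110.0, 113 and 112 CPM in the upshift, flat in the former and lowest at 0 h in the latter. It rose after warming by 0.25 ± 0.07 (adjusted p = 0.0181, edgeR), a call lost without upshift 0 h (0.13, adjusted p = 0.372) or 6 h (0.25, adjusted p = 0.0548). The rise was 0.39 within series 2 and 5 (adjusted p = 0.0495, edgeR) and 0.11 within series 11 and 13 (adjusted p = 0.39). It was also lost with no filter, linear hours or a step in time (adjusted p between 0.077 and 0.0813). The difference was -0.28 ± 0.09 (adjusted p = 0.0303). This call was lost without downshift 0, 6 or 9 h or upshift 0 or 6 h (-0.29 to -0.17, adjusted p between 0.0594 and 0.271) and within either pair of series (-0.34, adjusted p = 0.174, in series 2 and 5 and -0.25, adjusted p = 0.123, in series 11 and 13). It was also lost with time point as a block, no filter, linear hours, a step in time or without series 13 (adjusted p between 0.0526 and 0.12). Dkc1, dyskerin, the pseudouridine synthase itself, was at 148, 164, 176, 155 and 135 CPM in the downshift and at 148, 145, 146, 145 and 133 CPM in the upshift. It ended both courses at its lowest value, with a difference of 0.02 ± 0.18 (adjusted p = 0.945). Gar1, the remaining core protein, had a difference of -0.11 (adjusted p = 0.626).

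The small subunit members, 15 in all, had a median difference of 0.17, with Nop14 and Ddx10 called higher. Nop14 (chromosome 5, positions 34638536 to 34660148, minus strand) is a processome component needed for cutting the small subunit RNA in yeast. Its level was 57.0, 61.9, 68.1, 68.5 and 66.3 CPM in the downshift and 71.2, 62.0, 60.9, 58.2 and 55.5 CPM in the upshift. Later values lay above 0 h in the downshift and below it in the upshift. Nop14 rose by 0.24 ± 0.08 after cooling (adjusted p = 0.0424, edgeR) and fell by 0.32 ± 0.08 after warming (adjusted p = 0.0132), with a difference of 0.56 ± 0.11 (adjusted p = 0.0029). The difference stayed called with each sample left out (0.46 to 0.66). It was 0.86 within series 2 and 5 (adjusted p = 0.00463) and 0.23 within series 11 and 13 (adjusted p = 0.198). The rise lost its call without downshift 0, 1 or 6 h or upshift 6 or 9 h (adjusted p between 0.0501 and 0.446), and the fall without upshift 0 h (-0.22, adjusted p = 0.216). The rise was 0.44 within series 2 and 5 (adjusted p = 0.0376, edgeR) but 0.025 within series 11 and 13 (adjusted p = 0.88). It was also lost with no filter, linear hours, a step in time or without series 13 (adjusted p between 0.102 and 0.173). The change after warming was -0.42 within series 2 and 5 (adjusted p = 0.03) and -0.21 within series 11 and 13 (adjusted p = 0.143).

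Ddx10, a DEAD-box RNA helicase, had a difference of 0.50 ± 0.17 (adjusted p = 0.0348, edgeR), lost without downshift 0, 1 or 6 h or upshift 0 or 6 h (0.32 to 0.50, adjusted p between 0.0574 and 0.25). It was also lost within series 11 and 13, with linear hours or with time point as a block (adjusted p between 0.0593 and 0.157). Ltv1, which escorts the nearly finished small subunit to the cytoplasm, lay just outside at 0.44 (adjusted p = 0.0501). Wdr43 had the largest log2 value at 3 h of the downshift among all members and a difference of 0.60 ± 0.27 that did not pass (adjusted p = 0.0899). Its level ran through 147, 187, 226, 196 and 166 CPM in the downshift and through 198, 166, 169, 153 and 149 CPM in the upshift, with the highest value at 3 h of cooling and the next highest at 0 h of warming. Rrp9, which binds the U3 small nucleolar RNA, was at 80.2 CPM at the start and 55.5 CPM at the end of the downshift, and at 81.9 and 64.7 CPM in the upshift, with a downshift change of -0.48 ± 0.17 (adjusted p = 0.0546). The remaining small subunit members had differences between -0.34 (Tsr1) and 0.22 (Noc4l).

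The large subunit members held the extremes in both directions. Ddx21 (chromosome 10, positions 62580251 to 62602281, minus strand), a DEAD-box helicase that binds ribosomal RNA genes and snoRNAs, was at 387, 486, 588, 577 and 502 CPM in the downshift and at 570.4, 485, 448, 463 and 431 CPM in the upshift. All later downshift values were above 0 h, and all later upshift values were below it. Ddx21 rose after cooling by 0.45 ± 0.15 (adjusted p = 0.047, edgeR), a call lost without downshift 0 h (0.10, adjusted p = 0.727), downshift 1 or 6 h or upshift 1, 6 or 9 h (0.39 to 0.48, adjusted p between 0.0551 and 0.12). The difference was 0.80 ± 0.21 (adjusted p = 0.0107), lost without downshift 0 h (0.47, adjusted p = 0.115) or upshift 0 h (0.64, adjusted p = 0.0858), and with linear hours (0.60, adjusted p = 0.0967). It was 0.94 within series 2 and 5 (adjusted p = 0.0174) and 0.58 within series 11 and 13 (adjusted p = 0.0246).

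Gnl3 encodes nucleostemin, a nucleolar GTPase (chromosome 14, positions 31012433 to 31019152, minus strand). It was at 75.5, 89.2, 96.2, 88.0 and 82.1 CPM in the downshift and at 117, 102, 99.4, 83.8 and 81.7 CPM in the upshift. Each upshift value was below the one before it. Gnl3 fell after warming by 0.52 ± 0.12 (adjusted p = 0.00913, edgeR), lost only without upshift 0 h (-0.51, adjusted p = 0.0897) among the samples left out. Its difference was 0.63 ± 0.17 (adjusted p = 0.0121), lost without downshift 0 h (0.34, adjusted p = 0.125) or upshift 0 h (0.63, adjusted p = 0.057). It was 0.77 within series 2 and 5 (adjusted p = 0.027) and 0.45 within series 11 and 13 (adjusted p = 0.0342).

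Bop1, which forms the PeBoW complex with Pes1 and Wdr12, was at 165, 175, 185, 178 and 169 CPM in the downshift and at 209.9, 193, 188, 183 and 170.1 CPM in the upshift. Each upshift value was below the one before it, while the downshift ended close to its start. Its difference was 0.32 ± 0.11 (adjusted p = 0.0341, edgeR), lost without downshift 0, 1 or 6 h or upshift 0 or 9 h (0.20 to 0.32, adjusted p between 0.0525 and 0.247). The call was also lost with time point as a block, limma, no filter, a plain sum of columns, linear hours or a step in time (adjusted p between 0.0519 and 0.127). It was 0.68 within series 2 and 5 (adjusted p = 0.00547) and took the opposite sign within series 11 and 13 (-0.22). Pes1 and Wdr12 had differences of 0.19 and 0.24, neither called. Ddx56, another DEAD-box helicase, was at 75.2, 79.1, 87.1, 90.3 and 80.3 CPM in the downshift and at 86.6, 77.3, 72.6, 74.2 and 68.8 CPM in the upshift. Later values lay above 0 h in the downshift and below it in the upshift. Its difference of 0.46 ± 0.13 (adjusted p = 0.0165, edgeR) was lost without downshift 0 h (0.39, adjusted p = 0.104) or upshift 0 h (0.37, adjusted p = 0.112) and with linear hours (0.375, adjusted p = 0.0752). It was 0.68 within series 2 and 5 (adjusted p = 0.00665) and 0.28 within series 11 and 13 (adjusted p = 0.2005).

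Noc3l (chromosome 19, positions 38788128 to 38819237, minus strand), whose yeast counterpart helps large subunit precursors leave the nucleolus, had the lowest called difference. Its exon level was 69.6, 70.3, 69.8, 56.6 and 51.7 CPM in the downshift and 63.8, 62.5, 71.1, 67.1 and 68.3 CPM in the upshift, so only the downshift samples at 6 and 9 h stood low. Noc3l fell after cooling by 0.43 ± 0.12 (adjusted p = 0.0196, edgeR), a call lost without downshift 1, 6 or 9 h (-0.41, -0.41 and -0.31, adjusted p = 0.0523, 0.0567 and 0.134). This change was -0.67 within series 11 and 13 (adjusted p = 0.00814, edgeR) and -0.30 within series 2 and 5 (adjusted p = 0.13). With a step in time it was -0.23 (adjusted p = 0.36). The difference was -0.56 ± 0.16 (adjusted p = 0.0191), lost without downshift 9 h (-0.42, adjusted p = 0.0778) or upshift 0 h (-0.57, adjusted p = 0.0708), and with a step in time (-0.34, adjusted p = 0.276). It was -0.81 within series 11 and 13 (adjusted p = 0.00566) and -0.40 within series 2 and 5 (adjusted p = 0.119). Rrs1, a factor for the 5S particle, had the lowest difference of all members but a large error (-0.64 ± 0.28, adjusted p = 0.0778). Noc2l, which forms a complex with Noc3l in yeast, was at -0.45 (adjusted p = 0.064).

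**Figure D4:**
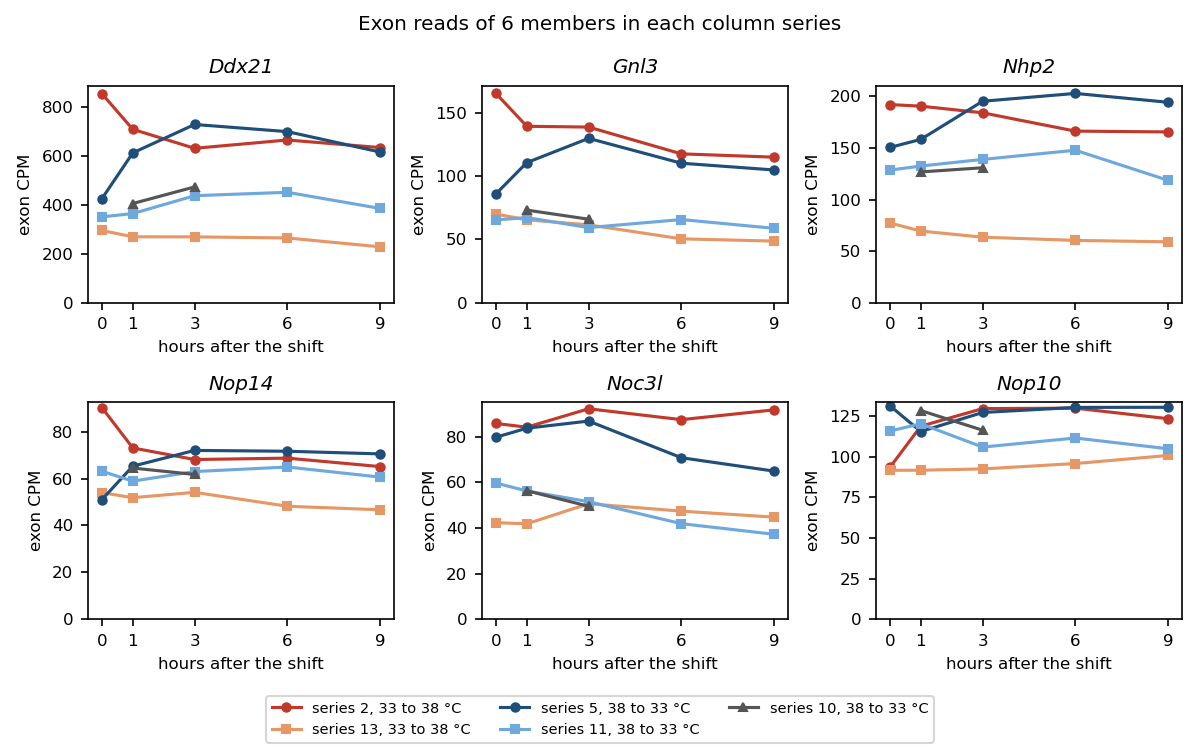
Exon CPM of Ddx21, Gnl3, Nhp2, Nop14, Noc3l and Nop10 against hours after the shift, with 1 line per series. The gap between series of the same samples exceeds the change over time for most panels, and Noc3l is lowest at 9 h in both downshift series.

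Course by course, few members were called by the slope, which is not a test of a rise and return within 9 h. After cooling 3 members rose (Ddx21, Nhp2 and Nop14) and 1 fell (Noc3l), where 16.2% of all tested genes were called higher and 16.4% lower. Leaving out 1 sample gave 0 (without downshift 0, 1 or 6 h) to 6 (without downshift 9 h) called higher, and 1 without upshift 6 or 9 h. The lower calls numbered 0 without downshift 1, 6 or 9 h, 2 without downshift 3 h or upshift 0 h, 3 without upshift 3 or 9 h and 5 without downshift 0 h. After warming 1 member rose (Nop10) and 6 fell (Gnl3, Ebna1bp2, Nop14, Nhp2, Ddx56 and Bop1), where 16.4% of all genes were called higher and 17.2% lower. The number that fell ran from 1 (without upshift 0 h) through 2 (without upshift 9 h) and 3 (without upshift 1 or 6 h) to 10, 11 and 18 (without downshift 3, 0 and 9 h). The rise of Nop10 was lost without upshift 0 or 6 h, leaving 0. Ebna1bp2, a large subunit factor, was at 267, 260.4, 255, 222 and 212 CPM in the upshift and at 220.3, 233, 244, 228 and 205 CPM in the downshift. It fell after warming by 0.34 ± 0.10 (adjusted p = 0.024, edgeR), lost without upshift 0, 1, 6 or 9 h (adjusted p between 0.0529 and 0.121). The falls of Bop1 (-0.26 ± 0.07, adjusted p = 0.0232) and Ddx56 (-0.29 ± 0.09, adjusted p = 0.0375) were lost without upshift 0 or 9 h, and that of Ddx56 also without downshift 1 h or upshift 1 or 6 h (adjusted p between 0.0506 and 0.346 over both genes). Within series 11 and 13 the changes were -0.13 (Ebna1bp2), -0.06 (Bop1) and -0.32 (Ddx56), none called (edgeR, adjusted p between 0.0656 and 0.706). Within series 2 and 5 they were -0.43, -0.39 and -0.27 (adjusted p = 0.0326, 0.0203 and 0.0842).

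A change shared by both courses was not called for any member. The mean of the courses gave 0 of 42 higher and 0 lower by edgeR, with 7 at an unadjusted p under 0.05 (16.7%, against 2038 of all 10184 genes), 1 lower by DESeq2 and 0 by limma. Over all genes 1.38% were called higher and 2.0% lower. The mean was below 0 for 34 of 42 members, with a median of -0.08 and the lowest value for Rrp9 (-0.36). Over all genes the median was 0.0024, and 50.7% were above 0.

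Intron reads, which come mainly from unspliced transcripts, were measured for 41 members, since Rrs1 has no intron. By their difference between shifts 0 of 41 were called higher and 0 lower by edgeR, with 1 at an unadjusted p under 0.05 (2.44%, against 26.1% of all genes), 1 lower by DESeq2 and 0 by limma. Of 9386 genes with intron reads 3.60% were called higher and 4.16% lower. Without the upshift 1 h sample 1 member was called lower. The median intron difference was -0.0043 (from -0.57 for Noc3l to 0.50 for Nhp2). In the mean of both courses 40 of 41 members were below 0, with a median of -0.14 against -0.01 over all genes. Of all genes 47.5% were above 0. None was called (edgeR, 0% of all genes higher and 0% lower, 4 members at an unadjusted p under 0.05, or 9.76% against 10.2% of all genes, 1 lower by DESeq2, 0 by limma), and without downshift 0 h or upshift 0 h 1 was called lower.

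Single genes show how the intron values ran. Ddx21 introns were at 198, 252, 263, 221 and 178 CPM of intron reads in the downshift and at 226, 204, 210.4, 199.8 and 196 CPM in the upshift. They were high at 1 and 3 h of cooling and back below their start at 9 h, while the exon level at 9 h was still above its own. Noc3l introns were at 79.0, 73.3, 61.1, 57.1 and 53.3 CPM in the downshift and at 65.0, 73.8, 74.5, 69.4 and 64.9 CPM in the upshift. Noc3l introns fell after cooling by 0.59 ± 0.12 (adjusted p = 0.0411, edgeR), the only intron call in a single course, where 0.788% of all genes were called higher and 1.04% lower after cooling, and 1.05% and 1.18% after warming. The snoRNA hosts among the members carry other RNAs in their bodies, whose reads the counting may have assigned to either gene: 7 members, Gnl3, Ncl, Nop56, Nop58, Dkc1, Tsr1 and Wdr43, hold 21 annotated snoRNA genes on their own strand. A further limit is that 17 members overlap a gene on the opposite strand, and whether the counting used strand is not stated in the labels or the files.

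The exon-to-intron ratio compares mature with unspliced RNA of the same gene. Its difference between shifts was called higher for 3 of 41 members and lower for 0, where 15.4% of all genes were called higher and 1.91% lower. This fit entered the exon and intron reads of a sample as separate libraries and did not use their pairing. The ratio calls of single genes below come from it. The median was 0.37 over members and 0.28 over all genes, and 39 of 41 members and 70.8% of all genes were above 0. An alternative chosen after seeing the data kept the pairing, with sample as a block for its exon and intron reads. By it 10 of 41 members were called higher and 0 lower, against 18.8% and 2.79% of all genes. The count thus depended on whether the pairing was kept. Rrp12, an export factor of both subunits in yeast, had ratios of 1.94, 2.08, 2.25, 2.62 and 2.68 in the downshift and of 3.47, 2.74, 2.52, 2.66 and 2.40 in the upshift. The ratio went up at each downshift step and was highest at 0 h of the upshift. Its exon level moved less, through 109, 120.3, 129, 124 and 111 CPM and through 138, 130.0, 128, 131 and 119 CPM. The ratio difference was 0.93 ± 0.25 (adjusted p = 0.0198, edgeR), lost without downshift 6 h (0.90, adjusted p = 0.0554) or upshift 0 h (0.69, adjusted p = 0.163), within series 11 and 13 (adjusted p = 0.491) and with a step in time (adjusted p = 0.0934).

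Bop1 ratios were 2.93, 3.08, 3.40, 3.97 and 4.05 in the downshift and 4.78, 3.75, 3.61, 3.69 and 3.36 in the upshift. As for Rrp12, the ratio went up at each step of cooling and the upshift 0 h sample stood highest. The difference was 0.92 ± 0.21 (adjusted p = 0.00769, edgeR), lost without upshift 0 h (0.68, adjusted p = 0.0892), within series 11 and 13 (adjusted p = 0.317) and with a step in time (adjusted p = 0.07). Bop1 overlaps Mroh1 and Scx on the other strand. Ddx56 ratios were 2.50, 2.45, 2.59, 3.105 and 2.82 in the downshift and 3.48, 3.04, 2.72, 2.92 and 2.63 in the upshift. The difference of 0.63 ± 0.21 (adjusted p = 0.049) lost its call with any sample but downshift 3 h or 9 h left out (0.50 to 0.75, adjusted p between 0.0549 and 0.257), and under most other alternatives. The number of members called higher was 0 without upshift 0 h, 1 without downshift 6 h, 6 without downshift 3 h and 13 without downshift 0 h. Ddx21 had the largest ratio difference of the members (1.06 ± 0.39) but did not pass (adjusted p = 0.0672).

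**Figure D5:**
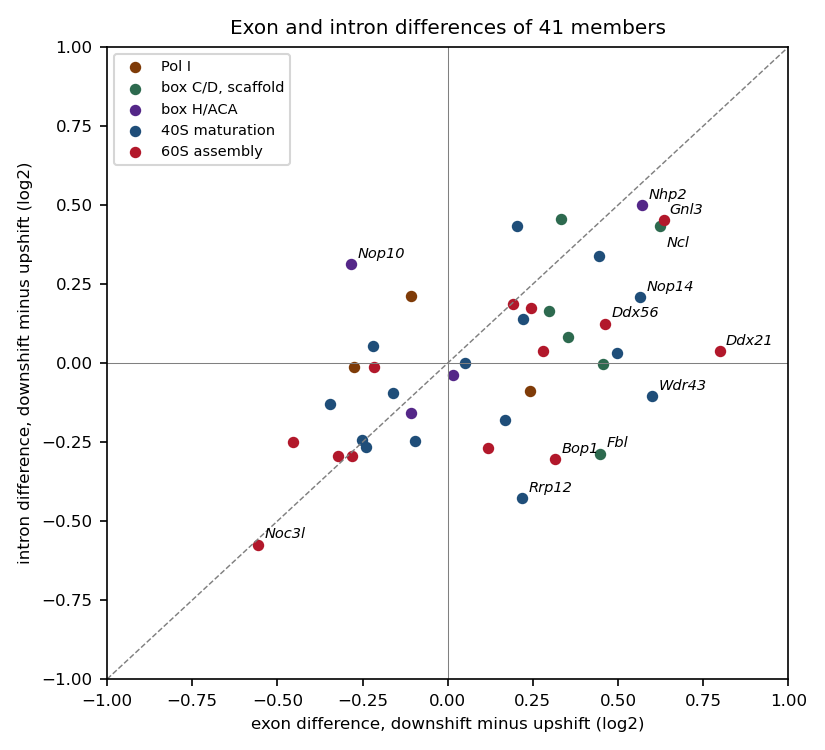
Intron difference against exon difference (both downshift minus upshift, log2) for the 41 members with introns, coloured by role, with a dashed line where both are equal. Ddx21 and Wdr43 lie far right near an intron difference of 0, Rrp12, Bop1 and Fbl lie below 0 on the intron axis, and Noc3l lies low on both.

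Other genes of the pathway did not share a direction. Of 117 further tested factors 22 were called higher and 26 lower by the exon difference, with a median of 0.02. Of all tested genes 23.9% were called higher and 23.0% lower, so a split in direction is not particular to these factors. The other small subunit factors gave 7 higher and 9 lower of 35, and the other large subunit factors 8 higher and 6 lower of 40. The RNA exosome, which trims ribosomal RNA precursors, gave 5 higher and 2 lower of 13, and the snoRNP assembly factors gave 0 higher and 3 lower of 8. Several of these differences exceeded those of all members. Gnl2, the paralog of Gnl3, had a difference of 1.18 ± 0.18 (adjusted p = 0.000668, edgeR), Dcaf13 had 1.05 ± 0.10 and Nle1 had 1.01 ± 0.15. In the other direction Ruvbl1, an ATPase of snoRNP assembly, had -1.132 ± 0.20, and Urb1 had -1.06 ± 0.19.

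The RNA polymerase I machinery outside the members had 1 gene called higher and 4 lower of 13, where 23.9% and 23.0% of all tested genes were. Ttf1, the transcription terminator of the ribosomal RNA genes, was at 31.0, 26.0, 18.2, 15.3 and 15.2 CPM in the downshift and at 14.2, 19.7, 28.3, 30.7 and 28.6 CPM in the upshift. The courses mirrored each other, and the difference was -2.23 ± 0.24 (adjusted p = 0.000152, edgeR). Taf1b and Taf1c, subunits of the promoter selectivity factor of the polymerase, had differences of 1.125 ± 0.17 and -0.89 ± 0.15. In the Myc network 1 gene was called higher and 2 lower of 8. Myc itself was at 106, 127, 137, 107 and 98.2 CPM in the downshift and at 120.2, 139.6, 126, 102 and 95.9 CPM in the upshift. It was highest in the early samples of both courses and had a difference of 0.27 ± 0.29 (adjusted p = 0.468, edgeR). Mlx, a partner of Mondo proteins, had -1.90 ± 0.25.

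The genes outside the members whose log2 level over the 10 samples was most like the members' mean were Rcl1 (Pearson r 0.955), Zfyve20 (0.931), Tma16 (0.928), Mrpl50 (0.920) and Timm8a1 (0.919). These are descriptions over samples that share libraries and time order.

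Promoter sequences of the members were searched for 2 motifs. RefSeq sequences (GRCm38.p6) running from 250 bases before to 50 bases after the annotated start were found for 37 of 42 members, as 40 promoters. The E-box CACGTG, the letters bound by Myc and related factors, was present on either strand in 8 of 40 member promoters (20%), against 7.15% of 32851 promoters and 10.6% of the 9093 promoters of tested genes. The core CCGGAAG of ETS factors was present on either strand in 14 of 40 (35%), against 8.86% and 19.0%. The 2 motifs cannot contain each other. Of the 4 members with the largest called exon difference (Ddx21, Gnl3, Ncl and Nhp2) none had the E-box in this window, and Nhp2 alone had the ETS core. Ddx21, the member with the largest difference, and Nhp2, the steadiest of the 4 calls, are shown for comparison, 5′ to 3′ on the strand of the gene, with the ETS core in capitals. They lie at chr10:62602249-62602548 (minus strand) and chr11:51619523-51619822 (plus strand).
Ddx21: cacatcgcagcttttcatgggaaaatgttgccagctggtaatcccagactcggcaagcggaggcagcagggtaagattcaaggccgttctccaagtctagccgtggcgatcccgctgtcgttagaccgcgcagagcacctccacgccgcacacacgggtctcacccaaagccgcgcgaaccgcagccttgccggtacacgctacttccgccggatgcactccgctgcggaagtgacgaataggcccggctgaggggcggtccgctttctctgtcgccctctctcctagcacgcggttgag
Nhp2: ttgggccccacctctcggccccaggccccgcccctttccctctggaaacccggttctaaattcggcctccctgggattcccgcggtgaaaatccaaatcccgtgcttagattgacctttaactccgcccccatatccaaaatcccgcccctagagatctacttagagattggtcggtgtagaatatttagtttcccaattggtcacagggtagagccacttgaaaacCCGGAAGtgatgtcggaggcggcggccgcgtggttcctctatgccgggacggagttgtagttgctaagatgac
A match is a description of letters and not of binding.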

How the data were processed

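The members, role groups and other gene lists were chosen with earlier results of these data known. TRIzol-extracted total RNA was cleared of DNA and of ribosomal RNA, and paired-end, strand-specific libraries were made, per the labels' protocols. The submitters' processing notes name STAR, bedtools and the build mm10, without versions. The sources used here state neither the annotation nor the rule for shared reads.

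The deposited tables hold estimated counts, although they are named for RPKM: totals differ between columns, and 22.9% of exon values are whole within 1e-06. The values were rounded to whole numbers. The title of 1 sample has a mistyped temperature, and its description puts it in the upshift. Of 22 exon columns, 0 lack a sample. Paired columns were no copies of each other (chi-square per degree of freedom of 105 to 292, log2 correlation of 0.937 to 0.972) and were summed with an offset per gene for the mix of series and counted as 1.

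Genes with a mean exon level of at least 1 RPKM were tested, for introns and ratios also at least 0.05 RPKM of introns, with lengths from GENCODE M21 (36308 genes matched by identifier, 95.3%). edgeR 4.0.16 (R 4.3.3) with TMM scaling fitted, over all 10 samples, for each course a starting level and a slope against log2(h + 1). Quasi-likelihood F tests were adjusted by Benjamini-Hochberg over all tested genes and called at 0.05. The standard error is the change over the square root of F. The ratio was tested as an interaction of read type and slope, with the exon and intron reads of a sample entered unpaired. The scripts were tested on simulated data. Alternatives were DESeq2 1.42.0, limma 3.58.1 on log2 RPKM (pseudocounts 0.1 for exons and 0.01 for introns), other scalings, filters, time scales and series, and each sample left out. Values in every sample are given for the members with the largest called changes and for Polr1a, Polr1b, Fbl, Ncl, Npm1 and Dkc1, with Wdr43, Rrp9 and the intron values added after values were seen. The other pathway genes are named from the 2 largest called differences per direction and list.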

Additional observations from a re-analysis of the deposited data

Results flagged for a closer look

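Series 10, which covers only 1 and 3 h of the downshift, entered only an alternative fit, and its values stand here because members' reads were plainly present in it. The summed exon level of the 42 members was 7696.5 CPM at 1 h and 7581.9 CPM at 3 h. At the same times series 11 was at 7636 and 7715 CPM, and series 5 at 9341 and 10670 CPM. Series 10 thus lay near series 11, and its level at 3 h was not above that at 1 h. Series 10 has no 0 h column, so its change from the start of the course could not be measured.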

How the results depend on the processing

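Counts of called members depended on the processing, and the cause was not tested. Where no share of all tested genes is given for a fit, a change in the members' calls and a change in calls over all genes cannot be told apart. After cooling, 3 members were called higher, but 0 within series 11 and 13, with linear hours or without series 13 (an alternative chosen after seeing the data), and 1 with 3, 6 and 9 h set as a step against 0 h. The 1 called lower became 3 with DESeq2 or series 10 added, 2 with limma, no filter or a plain sum of columns, 4 at 5 RPKM, 5 with linear hours, 9 within series 11 and 13, and 0 within series 2 and 5 or with a step. After warming, the 1 called higher became 0 with no filter, within series 11 and 13, with linear hours or a step, and the 6 called lower became 13 with DESeq2, 2 with a plain sum, 3 with linear hours and 0 with a step. For the exon difference, 9 higher became 5 within series 11 and 13 and 4 with linear hours. The 2 lower became 1 with no filter or without series 13, 0 within series 2 and 5 or with a step, and 6 within series 11 and 13 or with a plain sum. The exon mean gave 1 lower with DESeq2 and 2 with linear hours. The intron difference gave 2 higher and 1 lower with a step, and 1 lower with DESeq2, a plain sum or without series 13, and the intron mean 1 lower with DESeq2. For the ratio, 3 higher became 5 at 5 RPKM, 0 within series 11 and 13 or with a step, and 10 with sample as a block of its exon and intron reads, chosen after seeing the data.

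With 1 sample left out the counts ran from 0 to 6 higher and 0 to 5 lower after cooling, 0 to 1 higher and 1 to 18 lower after warming, 2 to 21 higher and 0 to 4 lower for the exon difference, 0 to 1 lower for the intron difference and mean, and 0 to 13 higher for the ratio. Replicate numbers pair no samples here, since each group has 1. With time point as a replicate block, which pairs the courses by hour, the exon difference gave 7 higher and 2 lower, the intron difference 0 and 0, and the ratio 2 higher and 0 lower.

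Among the genes given in every sample, values that changed sign were the Ebna1bp2 exon difference (-0.22) and the Bop1 exon difference (-0.22) within series 11 and 13, and the Polr1b exon difference within series 2 and 5 (0.28) and without downshift 9 h (0.0013). The Dkc1 exon difference changed with a plain sum (-0.0787), linear hours (-0.0641), without series 13 (-0.0352), without downshift 0 h (-0.27) and without upshift 9 h (-0.07). With 1 sample left out they ran from -0.23 to 0.0013 (Polr1b) and from -0.27 to 0.24 (Dkc1). Over the named genes and settings, 396 values kept a call, 116 stayed without one, 164 lost it, 14 gained it and 9 changed sign. Over all 42 members the exon difference had another sign in 2 within series 2 and 5 and in 7 within series 11 and 13. The shares of all tested genes with another sign are not given.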
